A study of Homo sapiens with 6 samples.

Results

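The arrestin family of Ishikawa cells was followed through 8 genes of 61806 in the table: the beta-arrestins ARRB1 and ARRB2, and the alpha-arrestins TXNIP, ARRDC1, ARRDC2, ARRDC3, ARRDC4 and ARRDC5. They were picked by symbol as members of one protein fold, with the differences between the groups already known, so the values below describe these genes and carry no test. Ishikawa is an established human line of endometrial adenocarcinoma. RNA was sequenced from 3 libraries with the genotype label EV and 3 with the label TEFM overexpression, TEFM being the elongation factor of mitochondrial transcription. None was treated, all were grown in DMEM with fetal bovine serum, and the submitters call the replicates independent and biological. No source used here says what EV stands for, how TEFM was introduced or whether a group is 1 clone or a pool. The title of the series ties TEFM to tumour progression by way of ROS and NF-kB and does not name arrestins.

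Beta-arrestins bind G protein-coupled receptors that receptor kinases have phosphorylated, uncouple them from G proteins and hand them to the clathrin coat. Alpha-arrestins are adaptors that bring ubiquitin ligases of the NEDD4 family to membrane proteins through PPxY motifs, and the ligases mark those proteins for uptake and breakdown. TXNIP, best known among them, binds thioredoxin and lowers glucose uptake by removing glucose transporters from the cell surface. TXNIP and ARRDC4 are textbook targets of MondoA, a transcription factor that pairs with MLX and reads glucose 6-phosphate through carbohydrate response elements.

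In the TEFM libraries ARRB1 was 5.69-fold higher in mean FPKM, while TXNIP, ARRDC4 and ARRDC3 were 3.07-fold, 2.5-fold and 1.98-fold lower. ARRB2, ARRDC1 and ARRDC2 lay within 1.22-fold, and ARRDC5 was barely detected. FPKM is the count scaled by exonic gene size and by library total. That size need not be the length of the transcript made, so comparisons between different genes are approximate. For 6 of the 7 members tested the EV and TEFM ranges were apart, 3 higher and 3 lower in TEFM. Among the 14254 tested genes, which reached 1 FPKM on average over the libraries, the ranges were apart for 51.6%, with 21.1% higher and 30.5% lower. A change of at least 1 on the log2 scale, in either direction, was seen in 3 of these 7 members, 1 higher and 2 lower, and in 4.83% of tested genes, 2.41% higher and 2.41% lower. Because the members were chosen with this contrast known, nothing is read from either count.

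The proximal promoters of TXNIP and ARRDC4, the members with the most negative log2 fold changes, are shown because MondoA is known to act on both genes. Sequences are from RefSeq on GRCh38.p14, written 5′ to 3′ on the gene's strand. Capitals mark E-box letters, which are CACGTG in ARRDC4 and were searched also in the form found in TXNIP, CACGAG. They also mark CCAAT boxes, read as ATTGG where the box lies on the other strand. In TXNIP they further mark a forkhead motif with the letters GTAAACA. All motifs were searched on both strands. The TXNIP stretch is chr1:145996640-145996739 on the minus strand and runs from base -160 to base -61, where -1 is the base before the start of transcription. The ARRDC4 stretch is chr15:97960483-97960652 on the plus strand and runs from base -220 to base -51.
TXNIP: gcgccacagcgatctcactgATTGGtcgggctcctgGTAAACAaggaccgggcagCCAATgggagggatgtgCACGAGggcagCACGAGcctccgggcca
ARRDC4: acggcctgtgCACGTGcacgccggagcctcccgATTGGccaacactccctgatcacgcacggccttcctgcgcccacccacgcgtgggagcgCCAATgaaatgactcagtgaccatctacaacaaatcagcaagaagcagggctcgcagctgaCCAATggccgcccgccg

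TXNIP holds CACGAG at base -88 and again at base -77, an arrangement with 5 bases between both copies. A pair of CACGNG copies so spaced, which in TXNIP overlaps both CACGAG copies, occurs on either strand in 20 of 35116 promoter windows of 300 bases (0.057%), and in 1 of the 6 members with a window. ARRDC4 holds 1 CACGTG, at base -210, a motif found in 7.26% of all windows, while CACGAG is found in 6.78%. CCAAT occurs in 34.6% of windows and in 5 of the 6 members, with 3 copies in ARRDC4. GTAAACA is in 3.42% of windows and, of these members, in TXNIP. ARRDC3, the other member with a clearly lower level, has neither E-box form in the window searched. For TXNIP, ARRDC2 and ARRDC3, which have another window, only the one nearest the deposited start was searched. These matches describe letters and were not tested as binding sites. No window was matched for ARRB1 or ARRDC5.

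Before the members are taken one by one, the libraries and labels were checked. Depth ranged from 14252668 to 17891047 counts. Pairs of libraries from 1 group differed by a chi-square per degree of freedom of 2.13 to 4.21, and pairs across the groups by 21.8 to 28.1, so no library repeats another. TEFM stood at 4.13, 4.24 and 4.55 FPKM in EV and at 23.7, 22.7 and 24.0 FPKM in the libraries labelled TEFM, a log2 fold change of 2.48 (SE 0.0788, edgeR adjusted p = 9.76e-18, exact two-sided permutation p = 0.1, the smallest that 3 against 3 allow). Of 10 endometrial epithelial markers 9 were tested, and their summed level, ESR1 included, was 570 to 621 FPKM in EV and 743 to 781 FPKM in TEFM, 8 of the 9 passing the edgeR test as higher, against 21.7% of all tested genes. ESR1, the oestrogen receptor gene, had at most 3 counts in any library. Summed markers of leukocytes, of endothelium and of stroma lay between 0.29 and 2.35 FPKM in every library, and DCN and CD3E were at 0, where 3 counts would give at most 0.0163 and 0.0792 FPKM. That epithelial markers were higher in TEFM stands beside every difference below, and its part in them was not tested. In bulk RNA, fewer cells with a transcript and less of it per cell cannot be told apart.

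**Figure D1:**
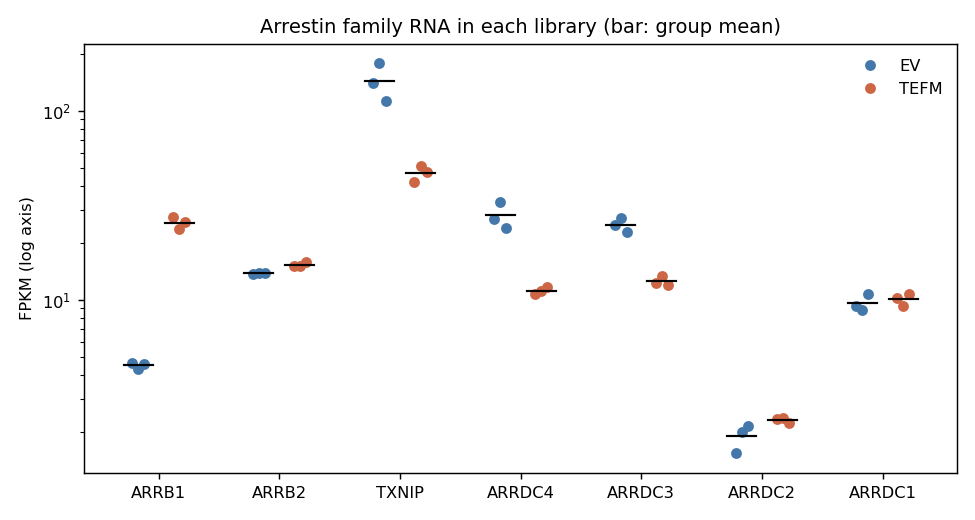
FPKM of 7 arrestin family genes in each of the 3 EV (blue) and 3 TEFM (orange) libraries on a log axis, with a bar at each group mean. ARRB1 sits at 4.32 to 4.62 in EV and at 23.7 to 27.2 in TEFM, while TXNIP, ARRDC4 and ARRDC3 sit lower in TEFM.

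Among the beta-arrestins, ARRB1 was higher in every TEFM library. This gene (ENSG00000137486, chromosome 11, 75260122 to 75351705, minus strand, GRCh38 positions as in the table) is the longest of the family, spanning 91.6 kb with 9.89 kb of exons. Its FPKM was 4.62, 4.32 and 4.55 in EV and 27.2, 23.7 and 25.8 in TEFM, from 644 to 818 counts in EV and 3637 to 4551 counts in TEFM. The lowest TEFM value lay far above the highest EV value, and the spread within EV was narrow, with a coefficient of variation of 3.49%. The log2 fold change from the fit over all genes was 2.54 (standard error, SE, 0.0538). Of the tested genes, 30 had a larger positive one.

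ARRB2 (ENSG00000141480, chromosome 17, 4710596 to 4721499, plus strand), the other non-visual arrestin, differed little. Its FPKM was 13.7, 13.8 and 13.9 in EV and 15.1, 15.0 and 15.9 in TEFM. The groups did not touch, but the log2 fold change was only 0.19 (SE 0.056). In EV, ARRB2 thus had the higher FPKM, with ARRB1 at 0.326 ± 0.0124 of its value (mean ± SD, n = 3 libraries, as in all values with ± here). In TEFM the FPKM order was reversed, with ARRB1 at 1.67 ± 0.122 of the ARRB2 value. These ratios rest on exonic sizes of 9.888 kb for ARRB1 and 4.265 kb for ARRB2. The lengths of the transcripts made were not measured, so which transcript was more abundant is not settled. ARRB1 made up 24.6% ± 0.704 of summed beta-arrestin FPKM in EV and 62.5% ± 1.67 in TEFM, and the sum itself went from 18.3 ± 0.143 to 40.9 ± 1.945 FPKM.

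**Figure D2:**
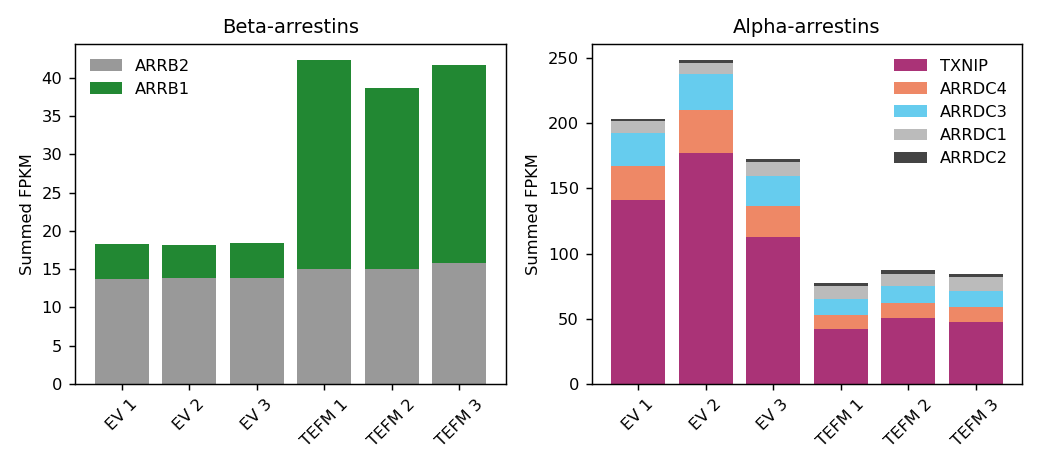
Stacked FPKM of the beta-arrestins (left) and of 5 alpha-arrestins (right, without ARRDC5, which is near 0) in each library. The green ARRB1 part takes 24.6% of the bar in EV and 62.5% in TEFM, while the TXNIP part of the alpha-arrestins shrinks with the whole bar.

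Among the alpha-arrestins, TXNIP was by far the most abundant in both groups. The gene (ENSG00000265972, chromosome 1, 145992435 to 145996579, minus strand) is compact, with 3.6 kb of exons in 4.15 kb. Its FPKM was 141, 178 and 113 in EV and 42.1, 50.9 and 47.5 in TEFM, from 6517 to 9655 counts in EV and 2439 to 3223 in TEFM. The lowest EV library, replicate 3, was still far above the highest TEFM library (113 against 50.9). The log2 fold change was -1.58 (SE 0.0958), and 129 tested genes had a more negative one. That SE depends on the method. It was 0.208 with a robust edgeR fit, 0.206 with DESeq2 and 0.0403 without the filter on low values. In EV, 99.1% of tested genes had a lower mean FPKM than TXNIP, and in TEFM 94.7% did.

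ARRDC4 (ENSG00000140450, chromosome 15, 97960703 to 97973833, plus strand), a paralog of TXNIP and like it a brake on glucose uptake, was lower as well. Its FPKM was 26.8, 33.1 and 23.9 in EV and 10.7, 11.1 and 11.7 in TEFM, every TEFM value being below every EV value. The log2 fold change was -1.28 (SE 0.0811). With DESeq2 the ARRDC4 SE was 0.143, with the robust edgeR fit 0.123, and without the filter on low values 0.0587. ARRDC3 (ENSG00000113369, chromosome 5, 91368631 to 91383317, minus strand), an adaptor for integrin beta 4 described as a tumour suppressor in breast, stood at 24.9, 27.0 and 22.9 FPKM in EV and at 12.3, 13.4 and 12.01 FPKM in TEFM. Again no TEFM library reached the EV range, with a log2 fold change of -0.95 (SE 0.0594). ARRDC3-AS1 overlaps ARRDC3 on the opposite strand over 2969 bases and, with 68 to 114 counts per library, is small beside the 853 to 2217 counts of ARRDC3. No source used here says whether strand was kept.

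The other alpha-arrestins were near level. ARRDC1 (chromosome 9, 137605685 to 137615360, plus strand), which buds vesicles from the plasma membrane with TSG101, had 8.81 to 10.8 FPKM in EV and 9.31 to 10.7 FPKM in TEFM, overlapping ranges, with a log2 fold change of 0.11 (SE 0.0806). ARRDC2 (chromosome 19, 18001132 to 18014102, plus strand) had 1.54, 2.01 and 2.14 FPKM in EV and 2.35, 2.37 and 2.24 FPKM in TEFM. The ARRDC2 groups nearly met (2.14 against 2.24 FPKM), and the log2 fold change was 0.34 (SE 0.139). ARRDC5 (chromosome 19, 4890437 to 4902896, minus strand) had 2, 0 and 0 counts in EV and 1, 3 and 5 in TEFM. A count of 0 allows up to 3 counts, which for ARRDC5 is 0.101 to 0.126 FPKM per library, so no fold is given.

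The order of the FPKM levels, which depends on the exonic size of each gene, differed between the groups. In EV it ran TXNIP, ARRDC4, ARRDC3, ARRB2, ARRDC1, ARRB1, ARRDC2 and ARRDC5, and among neighbours the ranges of ARRDC4 and ARRDC3 overlapped. In TEFM it ran TXNIP, ARRB1, ARRB2, ARRDC3, ARRDC4, ARRDC1, ARRDC2 and ARRDC5, so ARRB1 moved from sixth to second place. No neighbouring ranges overlapped in TEFM, but ARRDC4 and ARRDC1 were as close as 10.74 and 10.72 FPKM, and ARRDC3 and ARRDC4 as close as 12.01 and 11.71 FPKM. Summed over the 6 alpha-arrestins, the level was 208 ± 38.2 FPKM in EV and 83.1 ± 4.84 FPKM in TEFM (SD, n = 3). TXNIP took 68.7% ± 3.09 of that sum in EV and 56.3% ± 2.13 in TEFM.

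**Figure D3:**
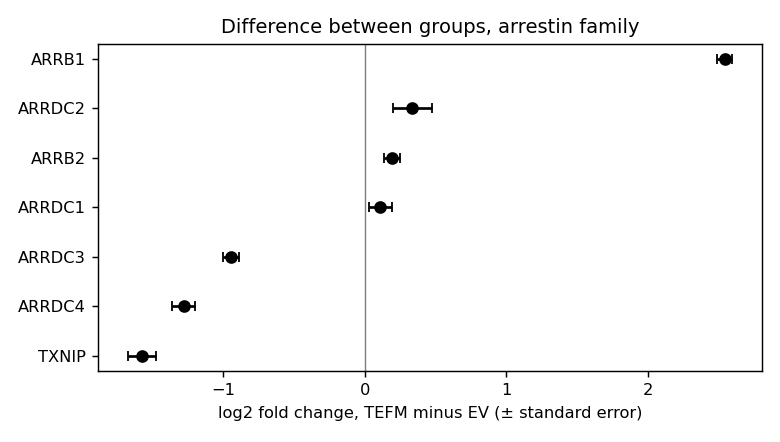
Log2 fold change, TEFM minus EV, of the 7 arrestin family genes with a mean of at least 1 FPKM. Values and standard errors are from the edgeR fit to counts over all genes. ARRB1 stands at 2.54, TXNIP, ARRDC4 and ARRDC3 stand at -1.58, -1.28 and -0.95, and the other 3 genes lie between 0.11 and 0.34. With other settings that keep all libraries, the standard errors of TXNIP and ARRDC4 reached 0.208 and 0.143, more than drawn here.

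TXNIP and ARRDC4 varied more among the EV libraries than the other members did. On the log2 CPM scale (counts per library size after TMM scaling) TXNIP spanned 0.66 over the 3 EV libraries, ARRDC4 0.47, ARRDC2 0.45, ARRDC1 0.29, ARRDC3 0.24 and ARRB1 0.12, where the median tested gene spanned 0.18. A wider span than that of TXNIP was found in 11.4% of tested genes. EV replicate 2 was the highest and EV replicate 3 the lowest for TXNIP, ARRDC4 and ARRDC3 alike. In TEFM TXNIP, ARRDC4 and ARRDC3 spanned 0.28, 0.14 and 0.15, against a median of 0.17, and the libraries did not share 1 order: replicate 2 was highest for TXNIP and ARRDC3, and replicate 3 for ARRDC4. The ratio of TXNIP to ARRDC4 FPKM was 5.25, 5.37 and 4.71 in EV and 3.92, 4.6 and 4.05 in TEFM. Thus all TEFM ratios were below all EV ratios, with the closest pair at 4.71 and 4.6.

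Genes whose profile over the 6 libraries lay nearest to ARRB1 and to TXNIP were sought by the Euclidean distance of centred log2(FPKM + 1) values. Distances were taken to 7742 others with a mean FPKM of at least 5, and genes without a symbol were then left out. Nearest to ARRB1 were the long noncoding RNA gene LINC02009 (distance 0.161, 2.68 ± 0.179 FPKM in EV and 16.5 ± 0.538 FPKM in TEFM), TEFM itself (0.164) and the inducible chaperone gene HSPA1B (0.274), which shares nearly all its sequence with HSPA1A, so its reads are uncertain. Nearest to TXNIP were TRIB3, a pseudokinase gene (0.381, 50.7 ± 6.81 and 13.4 ± 1.60 FPKM), DHRS2, a reductase gene (0.432, 22.1 ± 1.34 and 7.96 ± 0.76 FPKM), and ARRDC4 (0.472). With 2 groups of 3, such distances mostly reflect the size of the difference between the groups. HSPA1B, LINC02009 and TEFM were all higher in every TEFM library, and TRIB3 and DHRS2 lower in every one.

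ARRB1 lies in a stretch of chromosome 11 where most genes were higher in TEFM. Of 24 other tested genes within 1 Mb, 14 rose, 1 fell and 9 did not pass the edgeR test at an adjusted p of 0.05, and their median log2 fold change was 0.48. Over all tested genes 43.4% passed, 21.7% in each direction, and the median was -0.00. The genes on either side are TPBGL, 16.4 kb away, which rose from 0.473 ± 0.297 to 1.56 ± 0.222 FPKM, and RPS3, a ribosomal protein gene 47.8 kb away, which rose from 96.2 ± 2.60 to 132 ± 1.13 FPKM. GDPD5, a phosphodiesterase gene 82.9 kb away, rose by 2.77 on the log2 scale (SE 0.154). It was singled out after its value was seen as the 1 gene in the window above ARRB1. GDPD5 had 0.303 ± 0.0874 FPKM in EV and 2.03 ± 0.0625 FPKM in TEFM. It and TPBGL thus reached the mean of 1 FPKM needed for testing only through the TEFM libraries. SERPINH1, a collagen chaperone gene also chosen after its value was seen, had a log2 fold change of 0.85. That is less than in TPBGL (1.75), PGM2L1 (0.96) and SLCO2B1 (0.93), which also passed. Beyond 70 Mb on chromosome 11, 62.0% of 305 tested genes were higher and 2.62% lower, with a median log2 fold change of 0.36, and 2 of them exceeded ARRB1. Up to 70 Mb on this chromosome, 33.4% of 488 tested genes were higher and 11.3% lower, with a median log2 fold change of 0.12, and 4 of them exceeded ARRB1. On the other chromosomes 20.3% were higher and 22.5% lower. The 70 Mb cut was not fixed before these data were seen, so the contrast across it is only described. The part of this stretch in the ARRB1 difference was not tested.

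**Figure D4:**
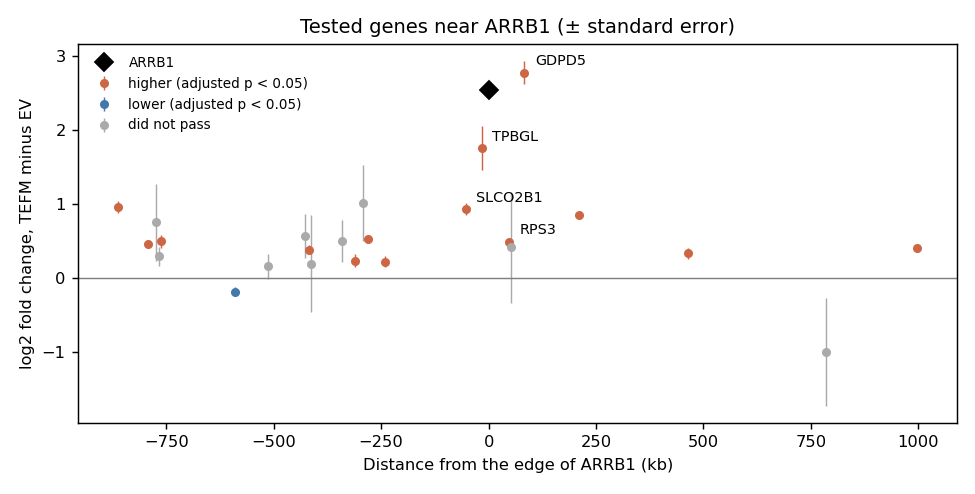
Log2 fold change with standard error of the 24 tested genes within 1 Mb of ARRB1, by distance from its nearer edge, with ARRB1 as a black diamond at 0 kb. Most genes lie above 0, with a median of 0.48, and GDPD5 at 2.77 lies above ARRB1 at 2.54. GDPD5 had only 0.303 FPKM in EV and reached the level tested through TEFM.

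Within 1 Mb of TXNIP, 1 of 17 tested genes rose, 4 fell and 12 did not pass, with a median log2 fold change of -0.14. The 23.5% that fell are close to the 21.7% of all tested genes, while 5.88% rose, also against 21.7%. POLR3GL, a subunit gene of RNA polymerase III 13.6 kb away, had 7.78 ± 1.08 FPKM in EV and 7.02 ± 0.937 FPKM in TEFM, and on the other side the nearest tested gene was 391 kb away. Around ARRDC3, 4 of 5 tested genes fell, or 80% against 21.7% of all tested genes. Over all 5 the log2 fold changes lay between -0.07 and -0.36, smaller than the -0.95 of ARRDC3 itself. ARRDC4 has 1 tested gene within 1 Mb, IGF1R, which rose. Around ARRB2, ARRDC1, ARRDC2 and ARRDC5, 34.1%, 25.6%, 29.2% and 33.3% of tested genes rose. In the same order, 4.55%, 16.3%, 12.5% and 5.13% fell. MIR326, a microRNA gene, lies within the bounds of ARRB1, but it had 1 count over the 6 libraries.

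Genes that work with arrestins were read from 11 lists of 130 genes, of which 100 were tested. Of these, 26 rose and 21 fell with edgeR, or 47% in all, close to the 43.4% of all tested genes. Without composition scaling the split was 21 and 28. The median log2 fold change was -0.01. The largest rise on the lists was in SLC2A1 and the largest fall in NEDD4, described below.

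**Figure D5:**
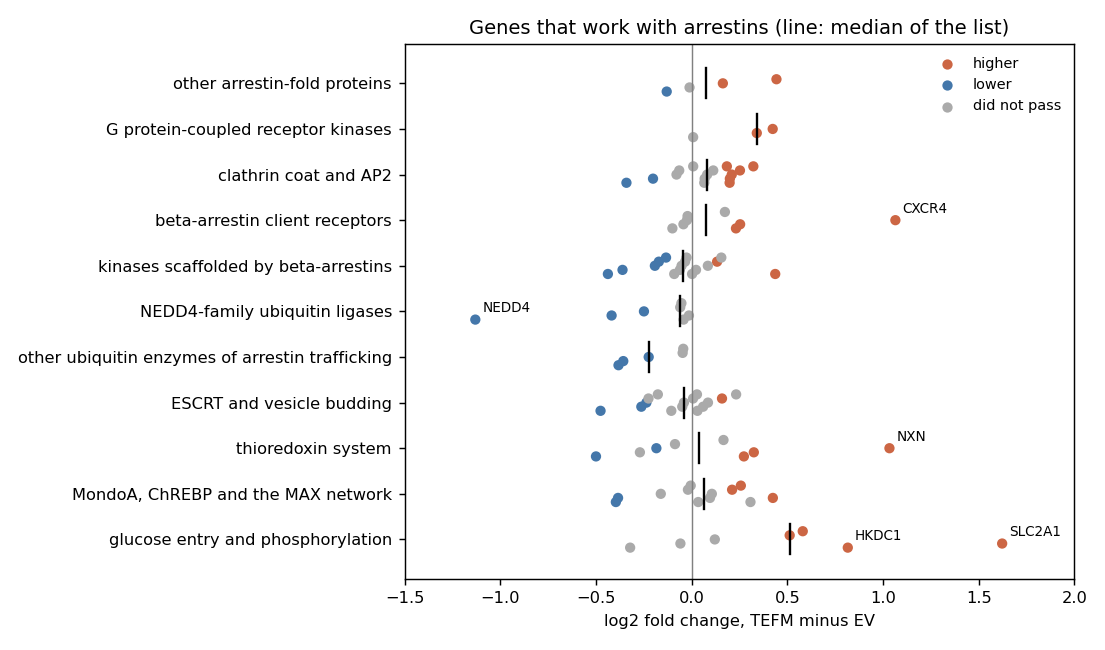
Log2 fold change of each tested gene in 11 lists of genes that work with arrestins, coloured by the edgeR call, with a line at the median of each list. The median over all lists is -0.01, with SLC2A1 at 1.62, CXCR4 at 1.06 and NXN at 1.03 on the right and NEDD4 at -1.13 on the left.

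Upstream of the beta-arrestins, 2 of 3 tested receptor kinases rose and none fell. The list median was 0.34 on the log2 scale against -0.00 over all tested genes. Of all tested genes 21.7% rose and 21.7% fell, and each list below holds few genes. GRK2, the main kinase of agonist-occupied receptors, rose from 19.2 ± 0.783 to 25.0 ± 1.202 FPKM (edgeR adjusted p = 5.81e-08), and GRK6 from 10.0 ± 0.345 to 12.4 ± 1.42 FPKM (edgeR adjusted p = 0.000472). GRK4 had a log2 fold change of 0.01, and GRK1, GRK3, GRK5 and GRK7 were below the level tested. Of 19 client receptors only 8 reached the level tested, of which 3 rose and none fell, with a median log2 fold change of 0.08. Thus 37.5% of client receptors passed, against 43.4% of all tested genes. The chemokine receptor gene CXCR4 stood at 2.47, 1.94 and 2.53 FPKM in EV and at 4.49, 4.61 and 5.1 FPKM in TEFM, a log2 fold change of 1.06 (SE 0.137, edgeR adjusted p = 7.84e-07). IGF1R rose by a log2 fold change of 0.25. F2RL1, a protease-activated receptor gene, rose by 0.23, but did not pass in 7 of the 16 alternative settings.

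In the endocytic coat, 6 of 15 tested genes rose, 2 fell and 7 did not pass, with log2 fold changes from -0.34 to 0.32 and a median of 0.08. Thus 53.3% passed, against 43.4% of all tested genes. PICALM (27.5 ± 0.841 to 31.9 ± 1.13 FPKM), the clathrin heavy chain gene CLTC (33.8 ± 1.23 to 38.1 ± 0.862 FPKM), the AP2 subunit gene AP2M1 (log2 fold change 0.20) and DNM1, a dynamin gene (0.32), rose. The 2 that fell were NSF (-0.34) and ARF6 (-0.20). AP2B1, whose product holds the platform to which beta-arrestins dock, had 41.5 ± 0.702 and 38.6 ± 0.577 FPKM and did not pass (edgeR adjusted p = 0.157). Of 16 tested kinases and phosphatase genes that beta-arrestins scaffold, 2 rose and 5 fell, with a median log2 fold change of -0.04. The 43.75% that passed are close to the 43.4% of all tested genes. SRC rose from 3.06 ± 0.0781 to 4.03 ± 0.0603 FPKM, while GSK3B fell from 11.6 ± 0.186 to 8.76 ± 0.166 FPKM, BRAF from 2.62 ± 0.07 to 1.88 ± 0.176 FPKM and MAPK8 by a log2 fold change of -0.17. MAPK8 did not pass when EV replicate 1, EV replicate 2 or TEFM replicate 2 was left out. Of 4 other tested genes with the arrestin fold, the retromer subunit genes VPS26B (log2 fold change 0.44) and VPS26A (0.16) rose, and RGP1 fell (-0.13). The median was 0.08, and 75% passed, against 43.4% of all tested genes. VPS26A and RGP1 each did not pass in 5 alternative settings. VPS26B and PICALM lie on chromosome 11 beyond 70 Mb, as ARRB1 does, and GRK2 lies on chromosome 11 below that point. The visual arrestin genes SAG and ARR3 had at most 0.46 FPKM in the mean of either group.

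Among the partners of alpha-arrestins, 3 of 7 tested NEDD4-family ligase genes fell and none rose, with a median log2 fold change of -0.06. The 42.9% of these that passed are close to the 43.4% of all tested genes, of which 21.7% fell. NEDD4 stood at 3.74, 4 and 3.32 FPKM in EV and at 1.55, 1.61 and 1.76 FPKM in TEFM, with no overlap and a log2 fold change of -1.13 (SE 0.0944, edgeR adjusted p = 6.38e-10). SMURF2 (-0.42) and SMURF1 (-0.25) fell by less. ITCH, WWP1, WWP2 and NEDD4L did not pass, with log2 fold changes from -0.06 to -0.01. Of 5 other ubiquitin enzymes, the deubiquitinase genes USP33 (-0.36), USP20 (-0.38) and STAMBP (-0.22) fell and none rose, the list median being -0.22. Thus 60% of these 5 fell, against 21.7% of all tested genes. MDM2, the ligase of beta-arrestin 2, had 43.3 ± 0.925 and 40.8 ± 0.847 FPKM without passing. In the budding machinery that ARRDC1 recruits, 1 of 15 tested genes rose (CHMP4B, 0.16) and 3 fell (STAM2, -0.48, VPS37A, -0.24, and VPS37B, -0.26). The median was -0.04, and 26.7% passed, against 43.4% of all tested genes. TSG101, the direct partner of ARRDC1, had 18.3 ± 0.489 and 18.2 ± 1.11 FPKM.

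In the thioredoxin system 3 of 8 tested genes rose and 2 fell, with a median log2 fold change of 0.04. Thus 62.5% of these 8 passed, against 43.4% of all tested genes. The thioredoxin gene TXN rose from 135 ± 7.40 to 159 ± 5.05 FPKM (edgeR adjusted p = 2.81e-05), its reductase gene TXNRD1 from 65.5 ± 0.439 to 79.8 ± 2.51 FPKM, and NXN, for nucleoredoxin, from 6.16 ± 0.189 to 12.3 ± 0.201 FPKM, whereas TXNRD3 fell (-0.50). The ratio of TXNIP to TXN FPKM was 1.07, 1.37 and 0.783 in EV and 0.257, 0.331 and 0.298 in TEFM. Of 7 tested genes of glucose entry and phosphorylation, 4 rose and none fell, with a median log2 fold change of 0.51. Thus 57.1% of these 7 rose, against 21.7% of all tested genes. SLC2A1, the transporter that TXNIP removes from the membrane, rose from 39.0, 38.8 and 41.7 FPKM to 123, 117 and 118 FPKM, a log2 fold change of 1.62 (SE 0.0382, edgeR adjusted p = 2.07e-20). The hexokinase gene HK1 rose from 10.7 ± 0.521 to 15.5 ± 1.08 FPKM, and HK2 did not pass (12.03 ± 0.732 and 11.2 ± 0.347 FPKM). The hexokinase-like gene HKDC1 and the transporter gene SLC2A6 rose by 0.82 and 0.51 on the log2 scale. HKDC1, with 0.977 FPKM in EV and 1.67 FPKM in TEFM, reached the level tested only through TEFM. The transporter gene SLC2A8 had 2.67 ± 0.327 FPKM in EV and 2.07 ± 0.116 FPKM in TEFM, ranges that did not overlap, and a log2 fold change of -0.32 that did not pass (edgeR adjusted p = 0.062).

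Factors that bind the carbohydrate response element, and the MAX network they belong to, had log2 fold changes from -0.40 to 0.42 over the 12 genes tested. MYCN, on the same list, was below the level tested, with 8, 17 and 15 counts in EV and 41, 57 and 39 counts in TEFM, ranges that did not overlap. MLXIP, which encodes MondoA, stood at 7.86, 8.47 and 8.83 FPKM in EV and 8.47, 8.02 and 7.61 FPKM in TEFM, overlapping ranges with a log2 fold change of -0.02 (edgeR adjusted p = 0.789). Its partner gene MLX rose from 19.9 ± 1.22 to 22.4 ± 0.567 FPKM (edgeR adjusted p = 0.00189). MLXIPL, for the related factor ChREBP, fell from 10.8 ± 0.766 to 8.06 ± 0.506 FPKM (edgeR adjusted p = 8.24e-05), and MXD1 fell by a log2 fold change of -0.40. MYC, whose product competes for the same E-boxes, rose from 41.3 ± 2.36 to 53.9 ± 2.05 FPKM (edgeR adjusted p = 2.17e-08). In the MAX network 3 of the 12 tested genes rose and 2 fell, with a median of 0.06. The 41.7% that passed are close to the 43.4% of all tested genes. RNA levels do not measure the nuclear amount or activity of these factors.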

How the data were processed

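Per the labels' protocols, poly(A) RNA was selected with oligo(dT) beads and primed at random. The deposited table holds raw counts and FPKM from the authors for 61806 genes. The submitters' processing notes name cutadapt 1.9.1 and hg19, yet 99.9% of 58254 gene IDs shared with GENCODE v29 lie at their GRCh38 position, all 8 members among them, so positions are given as GRCh38. No source used here names the aligner or the counter. The deposited FPKM equal the counts scaled by exonic gene size and library total, within 0.0051.

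Counts were tested with the quasi-likelihood test of edgeR 4.0.16 (R 4.3.3), TMM scaling, mean FPKM of at least 1, Benjamini-Hochberg adjustment over 14254 genes and a threshold of 0.05. Standard errors were derived from the F statistic. Alternatives used DESeq2 1.42.0 and limma 3.58.1, other scalings and filters, a fit with replicate number as a block, and leaving out each library. The fit was also run on simulated counts, with no outcome given here. That simulation gave every gene the same spread, so it cannot speak to genes with a wider spread. P-values cover the spread between these libraries. Intervals for a count of 0 cover counting error only.

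The members and lists were chosen with earlier results of these data known. Named are all members, TEFM, up to 4 called genes of each list with the smallest p and others whose role bears on a member, genes next to ARRB1 and TXNIP, and the 3 nearest profiles of each.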

Additional observations from a re-analysis of the deposited data

How the results depend on the processing

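The 7 arrestin genes with a fold change kept their direction in each of the 16 alternative settings that gave them a value, with ranges over the settings that keep all libraries of 2.27 to 2.56 for ARRB1, -1.62 to -1.56 for TXNIP, -1.32 to -1.24 for ARRDC4 and -0.99 to -0.93 for ARRDC3 on the log2 scale. The 2.27 came from limma on log2(FPKM + 1), where the pseudocount shrinks low values. ARRB2 was 0.14 with limma on log2(FPKM + 1), 0.15 with limma on log2(FPKM + 0.1) and 0.15 without composition scaling. Without 1 library at a time, ARRB1 ranged from 2.50 to 2.60, TXNIP from -1.73 to -1.40, ARRDC4 from -1.38 to -1.15, ARRDC3 from -1.01 to -0.89, ARRB2 from 0.16 to 0.20, ARRDC1 from 0.05 to 0.19 and ARRDC2 from 0.21 to 0.43. Over all genes, 2046 were higher with a mean FPKM of at least 5, since fewer genes are tested there, against 3092. Without composition scaling 2581 were higher and 3678 lower, and on the arrestin lists 21 and 28 against 26 and 21. Of the 47 called list genes, 38 were followed through the settings one by one, and 34 of these passed in every setting that gave them a value, the others of the 38 being F2RL1, MAPK8, RGP1 and VPS26A. The replicate numbers showed no clear pairing, as deviations of same-numbered libraries correlated at -0.07, 0.05 and -0.05. EV replicates 1 and 3 correlated best with another number, and EV replicate 2 with its own. Such small values cannot show that no pairing exists. With a replicate block 2986 genes were higher and 2949 lower, and 26 and 20 on the lists. ARRDC5, with at most 5 counts in any library, is given no fold under any setting.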
